A study of Mus musculus with 15 samples.

Results

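The 77 potassium channel genes described here are the rows of the deposited count table whose symbol starts with Kcn and a lower-case letter and whose mean was at least 1 CPM (counts scaled to a common library size by each library's total) over all 15 libraries. The table lists 98 such symbols among 24419 genes. The other 21 had means under the threshold, and none of them was at 0 in every library. The genes just inside it were Kcnd3os at 1.09 CPM, Kcnmb4 at 1.09 CPM and Kcng3 at 1.29 CPM, and those just outside it were Kcng4 at 0.988 CPM, Kcnq1 at 0.904 CPM and Kcne4 at 0.730 CPM. By symbol, 27 encode pore-forming subunits of voltage-gated channels, 8 modulatory voltage-gated subunits, 8 calcium- or sodium-activated channels, 12 inward rectifiers, 9 two-pore channels and 11 auxiliary or interacting proteins. The remaining 2 are RNAs that take their names from a channel gene, the long noncoding RNA Kcnq1ot1 and the antisense RNA Kcnd3os.

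RNA was sequenced from punches of the mouse suprachiasmatic nuclei (SCN), which sit in the hypothalamus and hold the central circadian clock. All mice were C57BL/6 and 8 to 12 weeks old. A control genotype was compared with a double knockout (DKO) of the clock receptors REV-ERB alpha and beta, at circadian time (CT) 4 h, in subjective day, and 16 h, in subjective night. Control mice gave 3 libraries at CT4 and 5 at CT16, and DKO mice gave 3 and 4, each made from 2 to 4 pooled punches. The labels used here do not say how, or in which cells, the receptors were deleted. Nor do they name the mice behind each pool, and the p-values cover the differences between pools. In such bulk tissue, fewer cells of a type and less RNA per cell cannot be told apart.

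Potassium channels let potassium leave the cell and so hold or return the membrane towards rest. SCN neurons fire fast by day and slowly by night, and this rhythm is carried in good measure by potassium currents: fast delayed rectifiers and A-type currents that shape repetitive firing, a calcium-activated current of the BK channel that is larger at night, and background currents through two-pore channels that set the resting potential. In glia, inward rectifiers take up the potassium that firing neurons release. REV-ERB alpha and beta, the products of Nr1d1 and Nr1d2, are transcriptional repressors within the molecular clock.

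Total counts ran from 32580803 to 68757624 per library, and the 77 genes took 0.395% to 0.456% of a library's counts. Whole-gene counts of the targeted genes do not check the genotype labels: Nr1d2 rose in DKO by 0.47 ± 0.09 at CT4 and Nr1d1 by 1.15 ± 0.12 at CT16 (log2 fold change ± standard error; edgeR quasi-likelihood test, adjusted p = 0.0212 and 6.93e-05). SCN markers were present in every group, with a summed level of 542 to 1151 CPM for the 12 genes of that list. Much of this sum came from single genes that varied widely, such as Avp at 72.3 to 681 CPM. Libraries also differed in markers of surrounding tissue. At CT4, 11 of 12 SCN markers lay below 0 in the genotype comparison (median log2 difference -1.19) and 13 of 15 markers of neighbouring nuclei above 0 (0.57), with no single marker called. At CT16, 10 of 10 myelin markers lay above 0 (0.72, none called), with summed levels of 2930 to 9656 CPM in control and 3878 to 19851 CPM in DKO. DKO CT16 replicate 4 had the highest myelin score, and DKO CT16 replicate 3 and control CT4 replicate 1 had the highest scores for neighbouring nuclei in their groups. These 3 libraries are referred to as those that stood apart, and the calls lost or gained without them are given beside the results. Control CT16 replicate 5 and DKO CT4 replicate 1 also had the highest neighbouring nuclei scores of their groups and were kept.

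Levels from here on are CPM scaled by the TMM method, and levels of different genes are compared per kilobase of exon. Kcnj10, an inward rectifier gene of glia, was highest at a mean of 128 CPM per kilobase. Also among the 5 highest were Kcnab2, a cytoplasmic beta subunit, at 37.7, Kcnt1, a sodium-activated channel, at 37.6, and Kcnk9, an acid-sensitive two-pore channel, at 33.6. The lowest were Kcnmb2, a BK beta subunit, at 0.640, Kcng3, a modulatory subunit, at 0.384, and Kcnq1ot1 at 0.315 CPM per kilobase. Class medians ranged from 13.9 CPM per kilobase for auxiliary proteins and 8.18 for pore-forming voltage-gated subunits to 1.62 for modulatory subunits. Within groups the spread of a gene had a median coefficient of variation of 14.3%. It was lowest for Kcnc2 at 5.28% and highest for Kcna5 at 44%, and 6 genes exceeded 30% (Kcna5, Kcnj4, Kcnh3, Kcnk13, Kcng3 and Kcnmb4). By the exon coordinates in the deposited table (mm10), the genes that passed a test between genotypes are Kcnj10 on chromosome 1 (172341210 to 172374085, plus strand), Kcne1l on chromosome X (142304753 to 142306198, minus strand), Kcna2 on chromosome 3 (107101567 to 107115005, plus strand) and Kcnk12 on chromosome 17 (87745821 to 87797994, minus strand). Those that passed a test only with time are Kcnn2 on chromosome 18 (45560154 to 45685883, plus strand), Kcnk1 on chromosome 8 (125995102 to 126030688, plus strand), Kcns2 on chromosome 15 (34837355 to 34843407, plus strand) and Kcnip3 on chromosome 2 (127456498 to 127522094, minus strand).

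**Figure D1:**
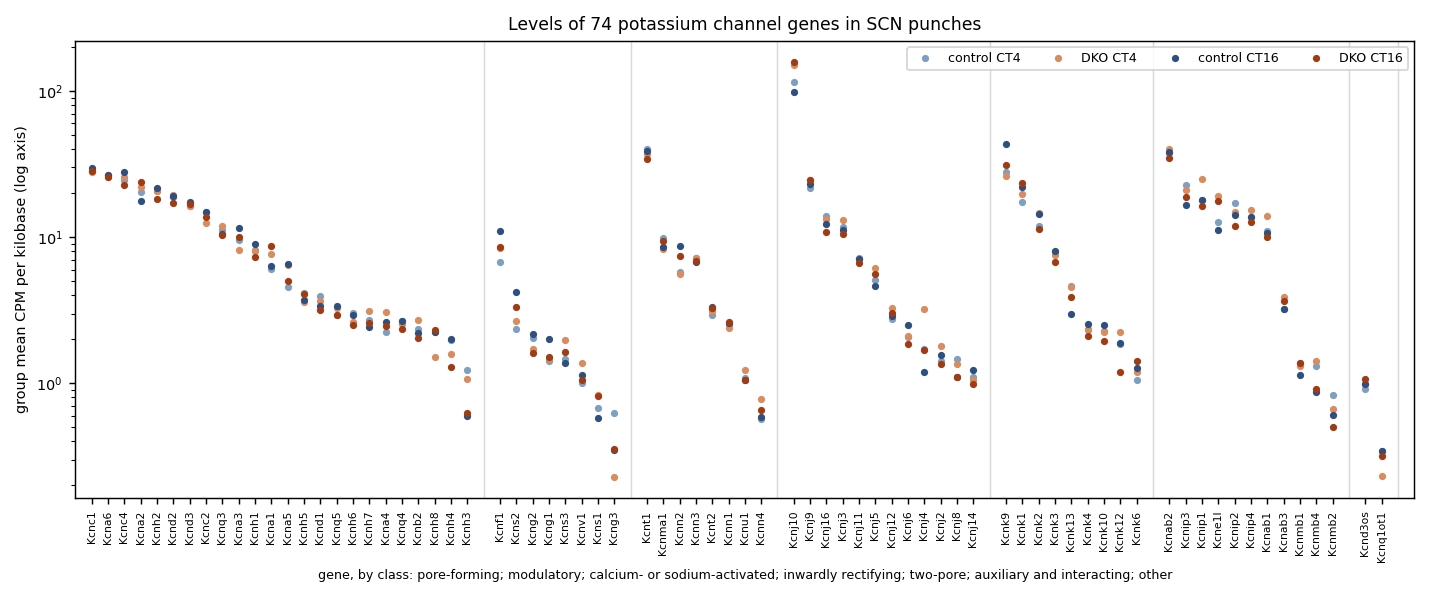
Group mean level of 74 of the 77 genes in CPM per kilobase of exon on a log axis, ordered by class and by level within the class, with 1 point per group. Kcnj10 stands highest, and its DKO points lie above its control points at both times.

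In subjective day, 2 of the 77 genes passed the test between genotypes, both higher in DKO. They are Kcnj10 and Kcne1l, an auxiliary subunit of voltage-gated channels also called Kcne5. Over all 16910 genes tested, 1.28% were called in this comparison (0.574% higher and 0.71% lower), against 2.6% of the channel genes. At an unadjusted p under 0.05 there were 11 of the 77, beside 14.8% of all genes. The median log2 difference of the 77 genes was 0.04, beside -0.00 for all genes tested. At CT4 Kcnj10 stood at 605, 647 and 622 CPM in the control libraries and at 822, 871 and 753 CPM in the DKO libraries. Every DKO library was above every control library. Kcnj10 rose by 0.38 ± 0.08, or 1.31-fold (edgeR quasi-likelihood test, adjusted p = 0.0386). Kcne1l stood at 18.5, 19.8 and 17 CPM in control and at 29.1, 28.7 and 25.7 CPM in DKO, again without overlap. It rose by 0.59 ± 0.13, or 1.5-fold (edgeR, adjusted p = 0.0407). Both calls were close to the threshold: leaving out single libraries ended that of Kcnj10 in 8 of 15 cases and that of Kcne1l in 9, and the highest adjusted p was 0.151 and 0.166. The call of Kcne1l was also lost with myelin and neighbouring nuclei scores as covariates and with the replicate number as a block, while that of Kcnj10 was kept in both. The number called was 0 without any 1 of the DKO CT4 libraries, control CT4 replicate 2 or 3 or control CT16 replicate 1, and 1 without control CT4 replicate 1, control CT16 replicate 3 or DKO CT16 replicate 2. The 10 astrocyte markers summed to 4810 to 5115 CPM in control and 4657 to 4834 CPM in DKO, with 4 above 0 and 6 below 0 and none called.

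At CT4 the libraries of the genotypes did not overlap for 21 of the 77 genes, against 25.4% of all genes, so most such separations did not pass the test. Kcnc2, a fast delayed rectifier subunit needed for rapid firing, was the most even gene of the set. Its level was 84.7, 99.0 and 93.2 CPM in control and 83.0, 77.1 and 74.1 CPM in DKO, with no overlap. The difference was -0.24 ± 0.06 (edgeR, adjusted p = 0.0715), and it passed without the 3 libraries that stood apart (adjusted p = 0.0100). Kcnq1ot1, which silences imprinted neighbours of Kcnq1, lay at 26.2, 31.4 and 28.6 CPM in control and at 20.0, 19.1 and 19.6 CPM in DKO. These 3 DKO libraries were the lowest of all 15. The difference was -0.56 ± 0.14 (edgeR, adjusted p = 0.0621, and 0.0462 without the 3 libraries). Kcng3 lay at 1.5, 3.35 and 1.51 CPM in control and at 0.762, 0.822 and 0.715 CPM in DKO, a difference of -1.47 ± 0.38 (edgeR, adjusted p = 0.0659, and 0.0252 without the 3 libraries). It is a low gene, and 1 control library held more than the other 2 together. Kcnc2, Kcnq1ot1 and Kcng3 passed in 5, 6 and 5 of 24 other settings. Among these were fits with all 15 libraries in DESeq2 (adjusted p = 0.0285, 0.00885 and 0.0120) and voom (0.0177, 0.0267 and 0.0429). All 3 genes also passed in edgeR on the compared groups alone (adjusted p = 0.0468, 0.00248 and 0.0299). Without the 3 libraries that stood apart, 8 of the 77 genes were called at CT4, or 10.4% beside 3.57% of all genes in the same fit. Besides Kcnj10, Kcne1l and these 3 they were Kcnma1, which fell, and the inward rectifiers Kcnj4 and Kcnj5, which rose (edgeR, adjusted p = 0.0213 and 0.0489). That set lacks control CT4 replicate 1, whose neighbouring nuclei score of 0.634 lay in the DKO CT4 range of 0.557 to 0.977. The control CT4 libraries it keeps were at -0.703 and -0.343, so genotype and this score go together there. With tissue scores as covariates 1 of the 77 genes was called at CT4, or 1.3% beside 1.42% of all genes. The part of tissue in the added calls was not tested.

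In subjective night 4 of the 77 genes passed the test, 3 higher and 1 lower in DKO, beside 4.66% of all genes (2.83% higher and 1.83% lower). That is 5.19% of the channel genes. An unadjusted p under 0.05 was reached by 20 of the 77, and by 20% of all genes. The 3 that rose were Kcnj10, Kcne1l and Kcna2, a low-threshold voltage-gated subunit of axons, and the 1 that fell was Kcnk12, a two-pore channel subunit. The same 4 genes were those with no overlap between genotypes, against 6.97% of all genes. Kcnj10 stood at 560, 576, 526, 513 and 475 CPM in control and at 810, 935, 768 and 929 CPM in DKO. The lowest DKO library was above the highest control library by a wide margin. Kcnj10 rose by 0.70 ± 0.07, or 1.62-fold (edgeR, adjusted p = 1.38e-05), which had the smallest p of the 77 genes. Kcne1l stood at 15.8, 18.2, 17.2, 12.4 and 17.9 CPM in control and at 22.0, 23.9, 26.2 and 29.97 CPM in DKO. It rose by 0.65 ± 0.11, or 1.56-fold (edgeR, adjusted p = 0.00166), close to its rise at CT4.

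Kcna2 at CT16 stood at 222, 208, 222, 205 and 165 CPM in control and at 284, 302, 270 and 256 CPM in DKO. The control libraries at night were below the 231 to 240 CPM of the control libraries by day, while the DKO libraries at night were within or above their day range of 239 to 270 CPM. Kcna2 rose in DKO by 0.44 ± 0.07, or 1.36-fold (edgeR, adjusted p = 0.00185). At CT4 its difference was 0.11 ± 0.09 (edgeR, adjusted p = 0.602). Kcnk12 stood at 2.98, 4.23, 3.73, 3.86 and 3.6 CPM in control and at 1.96, 2.60, 2.77 and 1.98 CPM in DKO. It fell by 0.66 ± 0.14 on the log2 scale (edgeR, adjusted p = 0.0118), to 0.633 of its control level. At CT4 Kcnk12 lay the other way, at 3.68, 3.70 and 3.54 CPM in control and at 4.11, 4.61 and 4.50 CPM in DKO. The genotypes did not overlap there, and the difference was not called. The calls of Kcnj10, Kcne1l and Kcna2 at CT16 were kept in all 24 other settings run, including each library left out in turn. With myelin and neighbouring nuclei scores in the model the rises were 0.61, 0.61 and 0.42. The call of Kcnk12 was lost in 2 settings, without the 3 libraries that stood apart (-0.70, adjusted p = 0.0582) and in a fit of the compared groups alone (adjusted p = 0.0682). Leaving out DKO CT16 replicate 3 raised the number called at CT16 from 4 to 10 (13% beside 5.8% of all genes in that fit), and leaving out DKO CT16 replicate 1 raised it to 8 (10.4% beside 7.83%). The genes added without replicate 3 were Kcnj16, Kcnh2, Kcnip2, Kcnk3, Kcnt1 and Kcnk10, all lower in DKO and named after their values were seen.

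**Figure D2:**
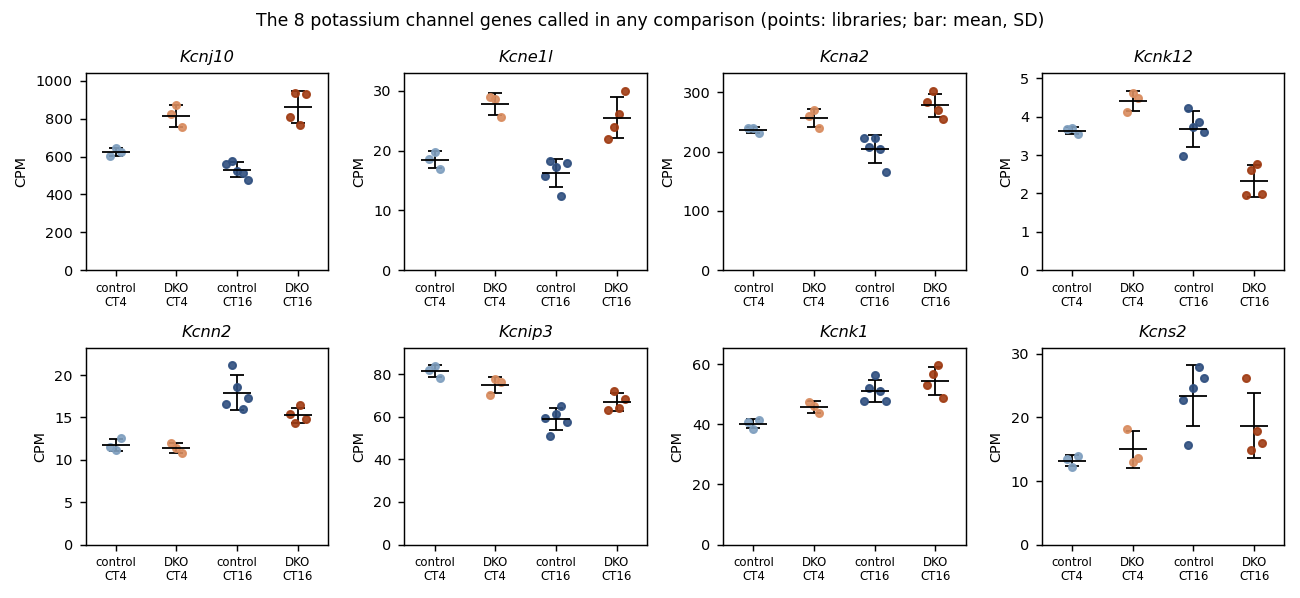
CPM of the 8 genes called in any comparison, with 1 point per library and a bar for the mean and SD of each group; each axis starts at 0. Kcnj10 and Kcne1l separate by genotype at both times, higher in DKO. Kcnk12 also separates at both, higher in DKO at CT4 and lower at CT16. Kcna2 separates by genotype at CT16, and Kcnk1 and Kcnip3 at CT4. Of these only Kcnj10 and Kcne1l were called between genotypes at CT4. Kcnn2, Kcnip3, Kcnk1, Kcns2, Kcnj10 and Kcna2 separate by time in control, and Kcnn2, Kcnk1 and Kcnk12 by time in DKO.

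Kcnj10 pairs in astrocytes with Kcnj16, which modifies its channel, and Kcnj16 was not called at either time. Kcnj16 stood at 44.9, 50.1, 51.0, 49.4 and 52.9 CPM in control and at 42.6, 39.7, 54.7 and 38.3 CPM in DKO at CT16. Only DKO CT16 replicate 3 was as high as the control libraries. The difference was -0.18 ± 0.08 (edgeR, adjusted p = 0.249), and without that library Kcnj16 passed the test with a fall (adjusted p = 0.00546), as it did without the 3 libraries that stood apart (-0.27, adjusted p = 0.0462). The CPM ratio of Kcnj10 to Kcnj16 was 10.5 to 11.5 in control and 13.4 to 16 in DKO at CT4, and 8.99 to 12.5 in control and 14 to 24.2 in DKO at CT16. The ratio thus separated the genotypes at both times, as Kcnj10 did by itself, so it is not a separate result. Other astrocyte genes went both ways at CT16: of the 10 markers, 7 were above 0 and 3 below (median 0.24). Gja1, a gap junction gene, and Agt, the angiotensinogen gene, rose, and Aldh1l1, a folate enzyme, fell. Their sum overlapped between genotypes, at 4200 to 5139 CPM in control and 4272 to 5135 CPM in DKO. Whether cell number had a part in the rise of Kcnj10 was not tested. Kcnj9, the neighbouring inward rectifier gene on chromosome 1 and a brain subunit of G-protein-gated channels, was looked at after its values were seen. It differed by 0.09 ± 0.08 at CT16 (edgeR, adjusted p = 0.535). At CT4 Kcnj9 stood at 68.6, 72.9 and 70.2 CPM in control and at 88.0, 80.0 and 73.6 CPM in DKO. Its DKO libraries were thus all above its control libraries at CT4, and the difference was not called.

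REV-ERB receptors bind the letters AGGTCA, often preceded by an A/T-rich stretch, and so the bases before the start sites are shown for the genes that differed between genotypes at CT16 and for Kcnj16. They come from RefSeq (build GRCm38.p6), run 5′ to 3′ on the gene's strand, and carry AGGTCA or its reverse complement in capitals where a search found it. Bases that belong to an exon are left out. The Kcnj10 stretch is chr1:172340960-172341209 (plus strand, GC content 62%), that of the first of 4 Kcnj16 starts chr11:110967783-110968032 (plus strand, 42.8%), that of Kcna2 chr3:107101395-107101566 (plus strand, 63.4%), that of Kcnk12 chr17:87797995-87798244 (minus strand, 64.8%) and that of Kcne1l chrX:142306295-142306448 (minus strand, 67.5%, ending 97 bases before the start).
Kcnj10: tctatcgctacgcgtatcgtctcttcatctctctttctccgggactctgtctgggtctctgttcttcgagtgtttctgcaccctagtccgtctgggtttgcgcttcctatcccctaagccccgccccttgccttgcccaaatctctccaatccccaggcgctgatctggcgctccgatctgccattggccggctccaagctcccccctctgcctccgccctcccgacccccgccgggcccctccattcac
Kcnj16: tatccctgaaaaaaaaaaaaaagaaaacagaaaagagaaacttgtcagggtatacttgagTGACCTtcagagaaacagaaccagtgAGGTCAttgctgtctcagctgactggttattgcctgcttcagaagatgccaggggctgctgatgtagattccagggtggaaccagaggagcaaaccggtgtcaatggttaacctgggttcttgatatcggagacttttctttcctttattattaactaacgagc
Kcna2: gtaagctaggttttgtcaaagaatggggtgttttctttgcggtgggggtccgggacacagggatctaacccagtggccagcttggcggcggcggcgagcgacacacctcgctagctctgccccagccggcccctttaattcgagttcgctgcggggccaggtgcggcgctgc
Kcnk12: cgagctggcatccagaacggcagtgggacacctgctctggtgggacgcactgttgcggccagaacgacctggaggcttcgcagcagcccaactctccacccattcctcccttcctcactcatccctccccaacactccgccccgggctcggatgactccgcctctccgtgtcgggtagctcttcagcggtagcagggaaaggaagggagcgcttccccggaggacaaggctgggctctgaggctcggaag
Kcne1l: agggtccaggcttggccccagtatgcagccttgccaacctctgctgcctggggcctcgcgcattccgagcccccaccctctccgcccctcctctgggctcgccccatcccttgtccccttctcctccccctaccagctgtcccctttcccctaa
Of these only Kcnj16, whose difference between genotypes was not called, held the letters, once on each strand. The Kcnj16 stretch is shown because it holds them, and the windows of the other 3 Kcnj16 starts do not. The stretches of the other genes are richer in G and C.

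Of the 77 genes, 55 had an entry among the RefSeq promoters, with 78 windows of 300 bases (250 before to 50 after a start). AGGTCA on either strand was in 5 windows, or 6.41%, against 16.3% of all 32851 windows. These belonged to Kcnh1, Kcnj16, Kcnf1, Kcnk10 and Kcnip4, none of which was called between genotypes. The longer REV-ERB element, AGGTCA directly preceded by AANT, was in 0 of the 78 windows and in 0.219% of all. The E-box CACGTG, bound by the clock's activators, was in 6.41%, against 7.15% of all. The D-box letters TTATGTAA and TTACGTAA were in 0 of the 78 windows, against 0.938% and 0.119% of all. A match is a description of letters, and a window without one says nothing on binding elsewhere.

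Time of day was compared first in control mice. From CT4 to CT16, 4 of the 77 genes passed the test, 3 higher and 1 lower at night, or 5.19% beside 4.21% of all genes (2.13% higher and 2.08% lower). At an unadjusted p under 0.05 the number was 17 of the 77, beside 19.9% of all genes. Kcnn2, the small-conductance calcium-activated channel of the afterhyperpolarization, Kcnk1, a weak two-pore channel, and Kcns2, a modulatory subunit with no current of its own, rose. Kcnip3, a calcium-binding protein that joins A-type channels and is also known as a transcriptional repressor, fell. The groups did not overlap for 16 of the 77 genes, against 15.8% of all. Kcnn2 stood at 11.5, 11.2 and 12.5 CPM at CT4 and at 16.5, 21.1, 18.7, 16 and 17.3 CPM at CT16. All night libraries were above all day libraries, and Kcnn2 rose by 0.61 ± 0.09, or 1.53-fold (edgeR, adjusted p = 0.00178). Kcnip3 stood at 82.0, 83.8 and 78.3 CPM at CT4 and at 59.7, 51.1, 61.1, 65.1 and 57.6 CPM at CT16, also without overlap. It fell by 0.47 ± 0.07 on the log2 scale (edgeR, adjusted p = 0.00119).

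Kcnk1 in control stood at 40.9, 38.5 and 41.4 CPM by day and at 47.8, 52.0, 56.5, 51.1 and 47.8 CPM by night. It rose by 0.34 ± 0.07 (edgeR, adjusted p = 0.0107), and without control CT4 replicate 2 the adjusted p was 0.0691. Kcns2 stood at 13.4, 12.2 and 14 CPM by day and at 22.7, 15.7, 24.6, 28.0 and 26.1 CPM by night. The night libraries were uneven, and Kcns2 rose by 0.83 ± 0.21 (edgeR, adjusted p = 0.0410), a call lost in 13 of 24 settings, among them the set without the 3 libraries (adjusted p = 0.142). The calls of Kcnn2 and Kcnip3 were kept in all 24. Of the 2046 exonic bases of Kcnn2, 284 are shared with an antisense gene, A330093E20Rik, which averaged 0.421 CPM, and whether the counting used strand is not given. Without control CT4 replicate 2, 2 of the 77 genes were called, or 2.6% beside 1.38% of all genes in that fit. With tissue scores as covariates 12 were, or 15.6% beside 7.94%. In the same comparison 3 of 9 microglia, 2 of 9 endothelial and 2 of 12 SCN markers fell and none of these lists had a member that rose. Of the neighbouring nuclei markers 1 of 15 rose, and all 10 neuronal markers lay above 0 (median 0.14, none called). Their part in the results was not tested.

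Other genes that separated day from night in control missed the threshold. Kcnf1, a modulatory subunit, stood at 33.7, 28.7 and 34.8 CPM by day and 43.4, 42.1, 50.9, 57.9 and 69.1 CPM by night, a difference of 0.70 ± 0.19 (edgeR, adjusted p = 0.0625). Kcnk9 stood at 32.8, 32.3 and 36.0 CPM by day and 54.6, 37.7, 49.1, 55.0 and 64.2 CPM by night, a difference of 0.63 ± 0.18 (edgeR, adjusted p = 0.0711). Both were highest in control CT16 replicate 5 and showed no overlap. In DKO mice the same contrast was 0.03 ± 0.20 for Kcnf1 and 0.26 ± 0.19 for Kcnk9. Neither difference between genotypes passed the interaction test (edgeR, adjusted p = 0.277 and 0.511). The change in control passed in 5 of 24 other settings for Kcnf1 and in 4 for Kcnk9, DESeq2 (adjusted p = 0.00201 and 0.00444) and voom (0.0193 and 0.0187) among them. In DKO at CT16 Kcnk9 stood at 50.7, 36.0, 33.9 and 31.0 CPM. Its genotype difference there was not called, but passed with a fall in 3 of 24 other settings, among them DESeq2 (-0.46, adjusted p = 0.0340). Kcnj10 also separated day from night in control, at 605, 647 and 622 CPM by day and 560, 576, 526, 513 and 475 CPM by night. Its fall was not called, but passed in 4 of 24 other settings, among them DESeq2 (-0.23, adjusted p = 0.0446) and tissue covariates in edgeR (-0.18, adjusted p = 0.0208). In DKO its day and night libraries overlapped, at 753 to 871 and 768 to 935 CPM.

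In DKO mice, 2 of the 77 genes passed the test between CT4 and CT16, 1 higher and 1 lower at night, or 2.6% beside 1.8% of all genes (1.29% higher and 0.509% lower). An unadjusted p under 0.05 was found for 18 of the 77, beside 18.6% of all genes. Kcnn2 rose again, and Kcnk12 fell. Kcnn2 stood at 12.0, 11.4 and 10.8 CPM by day and at 15.5, 14.3, 16.4 and 14.8 CPM by night. It rose by 0.42 ± 0.10, or 1.34-fold (edgeR, adjusted p = 0.0344), and the call was lost in 8 of 24 settings, 5 of them with 1 library left out; without the 3 libraries that stood apart the adjusted p was 0.0630. Kcnk12 stood at 4.11, 4.61 and 4.50 CPM by day and at 1.96, 2.60, 2.77 and 1.98 CPM by night. It fell by 0.92 ± 0.16 on the log2 scale (edgeR, adjusted p = 0.00603), to 0.530 of its day level. Kcnk12 lost this call in 2 settings, with myelin and neighbouring nuclei scores as covariates and in the compared groups alone (edgeR, adjusted p up to 0.0941). In control mice it stood at 3.68, 3.70 and 3.54 CPM by day, within its night range, and the difference was 0.02 ± 0.15 with a 95% interval of -0.30 to 0.34. Day and night did not overlap in DKO for 7 of the 77 genes, against 14.7% of all. Kcnk1 was among those 7, at 47.4, 46.2 and 43.7 CPM by day and 53.0, 56.6, 59.6 and 48.7 CPM by night. Its rise in DKO did not pass in the main edgeR fit. It passed in 3 of 24 other settings: DESeq2 (0.25, adjusted p = 0.0396), voom (0.28, adjusted p = 0.0193) and edgeR without DKO CT16 replicate 4 (0.30, adjusted p = 0.0296).

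More channel genes lay below than above 0 in the DKO time comparison, 52 against 25, with a median of -0.12 beside 0.01 for all genes. Inward rectifiers had 11 of 12 below 0 and auxiliary proteins 10 of 11. The neighbouring nuclei score also differed between these groups, except in 1 library: DKO CT16 replicate 3 held a score of 0.931, while the other night libraries of DKO were at -1.13 to -0.811 and the day libraries at 0.557 to 0.977. Without that library 14 of the 77 genes were called, or 18.2% beside 8.68% of all genes in that fit. Without all 3 libraries that stood apart 11 were, or 14.3% beside 6.98%: Kcnk12, Kcnj2, Kcnj3, Kcnj4, Kcnj16, Kcnip2, Kcnab1, Kcnb2 and Kcnh3 fell, and Kcna3 and Kcnq1ot1 rose. Only 1 was called without any 1 of the DKO CT4 libraries, DKO CT16 replicate 1 or DKO CT16 replicate 2. Those added without DKO CT16 replicate 3, named after their values were seen, included Kcnj16, Kcnj3, a G-protein-gated inward rectifier, and Kcnip1, Kcnip2 and Kcnip4, which bind A-type channels, all lower at night. In the deposited set of 15 libraries none of these passed, with differences of -0.30 ± 0.10 for Kcnj16, -0.33 ± 0.14 for Kcnj3, -0.62 ± 0.25 for Kcnip1, -0.31 ± 0.13 for Kcnip2 and -0.27 ± 0.11 for Kcnip4. The part of tissue in these values was not tested.

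The genotypes were also compared in their change with time. None of the 77 genes passed the interaction test in edgeR, beside 0.0118% of all genes (2 genes), while 10 had an unadjusted p under 0.05, beside 15.1% of all genes. DESeq2 called 2, Kcnk12 and Kcnma1 (adjusted p = 0.00819 and 0.0484), beside 2.58% of all genes, and limma voom called Kcnk12 (0.0347), beside 2.48%. Kcnk12 had the smallest p, with an interaction of -0.93 ± 0.22 (edgeR, adjusted p = 0.104), and it passed without DKO CT16 replicate 3 (adjusted p = 0.0340). The other named genes of small p were Kcnma1, the BK channel, at 0.38 ± 0.10 (edgeR, adjusted p = 0.144), Kcnip3 at 0.31 ± 0.10 (adjusted p = 0.177), Kcng3 at 1.48 ± 0.48 (adjusted p = 0.181) and Kcnj10 at 0.31 ± 0.11 (adjusted p = 0.200). So the fall of Kcnip3 at night in control, and its value of -0.16 ± 0.07 in DKO, were not shown to differ. Without the 3 libraries that stood apart 3 genes passed, beside 2.49% of all genes: Kcnma1, Kcnk2 (-0.87, adjusted p = 0.0439) and Kcnj2 (-0.88, adjusted p = 0.0449).

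**Figure D3:**
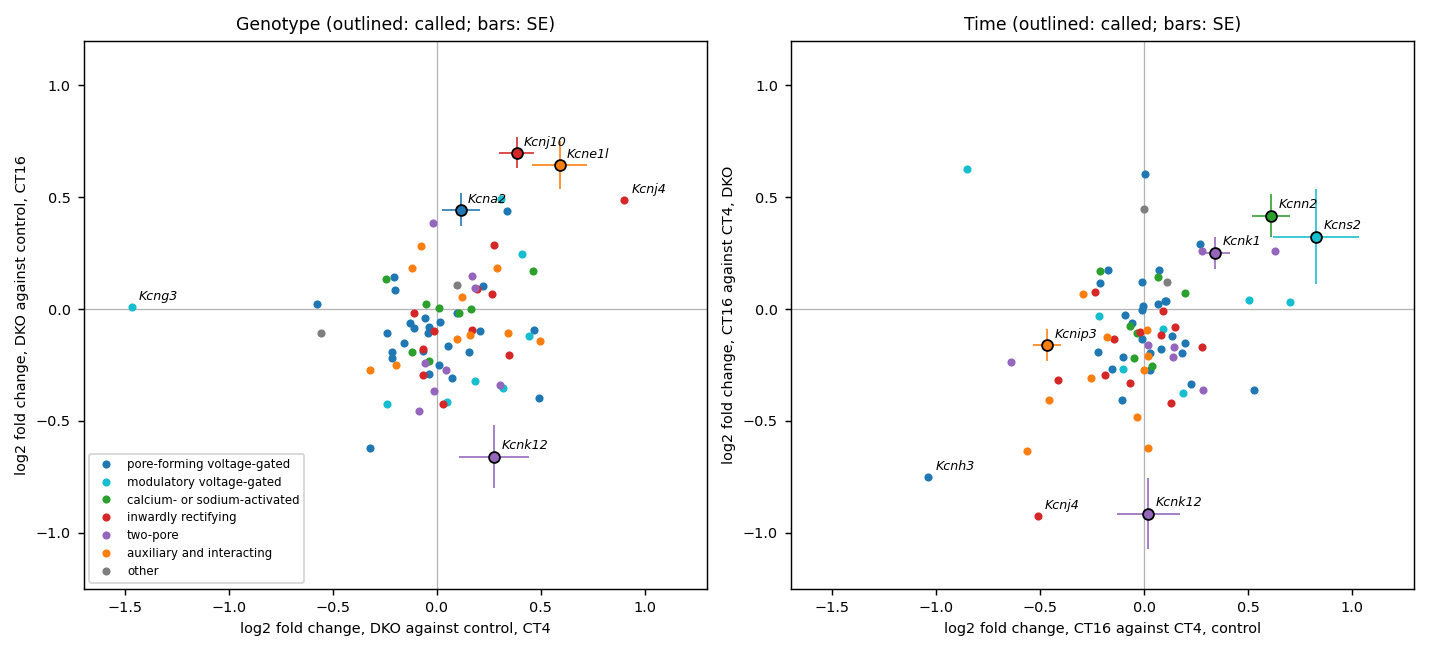
Log2 fold changes of the 77 genes, genotype at CT4 against genotype at CT16 (left) and time in control against time in DKO (right), coloured by class; outlined points passed the test in at least 1 of both comparisons of a panel and bars are standard errors. Kcnj10 and Kcne1l lie high in both genotype comparisons, Kcnk12 low at CT16, and Kcnn2 high in both time comparisons; each panel's comparisons share no library.

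Channels with a known role in the firing of SCN neurons were listed whatever their values, and those described next were not called in any comparison. Kcnc1, a fast delayed rectifier subunit, stood at 263 to 275 CPM in control and 246 to 276 CPM in DKO at CT4, and at 253 to 306 CPM in control and 217 to 293 CPM in DKO at CT16. Its groups overlapped in all comparisons, and its differences lay between -0.08 and 0.06. Their 95% intervals stayed within -0.25 to 0.25. Kcnc4 of the same family was also not called, at -0.31 ± 0.12 at CT16 (edgeR, adjusted p = 0.166), where DKO CT16 replicate 4 was lowest at 48.0 CPM. Kcnq3, a subunit of the slow M-current, differed by 0.10 ± 0.17 at CT4 and -0.02 ± 0.14 at CT16.

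The BK channel gene Kcnma1 stood at 68.9, 87.5 and 76.7 CPM in control and at 66.0, 66.9 and 63.6 CPM in DKO by day. By night it stood at 74.3, 67.3, 63.1, 67.6 and 62.7 CPM in control and at 79.6, 73.3, 71.9 and 69.8 CPM in DKO. Day exceeded night in the control means and night exceeded day in every DKO library. The time difference was -0.21 ± 0.07 in control and 0.17 ± 0.08 in DKO (edgeR, adjusted p = 0.105 and 0.244). In control it passed without the 3 libraries that stood apart (-0.29, adjusted p = 0.0314) and with tissue scores as covariates (-0.22, adjusted p = 0.0227). The interaction passed without the 3 libraries (adjusted p = 0.0208), and the genotype difference at CT4 moved from an adjusted p of 0.160 to 0.0304. Its beta subunit gene Kcnmb4, which slows the gating of BK channels, was low at 0.603 to 1.91 CPM and was not called. Of its 1005 exonic bases, 286 and 338 are shared with antisense genes Kcnmb4os1 and Kcnmb4os2.

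No pore-forming gene of the A-type channels passed a test in the main edgeR fit. Kcna4 stood at 11.8, 10.0 and 10.9 CPM in control and at 18.1, 13.9 and 13.0 CPM in DKO at CT4, with no overlap. The difference of 0.47 ± 0.15 did not pass (edgeR, adjusted p = 0.155), and at CT16 it was -0.09 ± 0.12. At CT4 Kcna4 passed in 1 of 24 other settings, edgeR on the compared groups alone (0.47, adjusted p = 0.0463). Kcnd1 and Kcnd2, pore-forming A-type subunits, differed between genotypes by -0.11 ± 0.10 and 0.05 ± 0.12 at CT4 and by -0.09 ± 0.08 and -0.17 ± 0.10 at CT16. Kcnd3 was among the most even genes, at 105 to 135 CPM over all libraries. Kcnh4, a member of the ether-a-go-go family, came nearest to a further call at CT16. It stood at 6.08, 6.52, 7.83, 7.83 and 9.62 CPM in control and 6.14, 4.21, 4.61 and 4.77 CPM in DKO, a difference of -0.62 ± 0.17 (edgeR, adjusted p = 0.0506) that overlapped in DKO CT16 replicate 1 alone. It passed in 10 of 24 other settings, among them DESeq2 (adjusted p = 0.0103), voom (0.0368) and the set without that library (0.0202). Kcnh2, the ERG channel, differed by -0.25 ± 0.08 (adjusted p = 0.0866), and without DKO CT16 replicate 1 or 3 it passed (adjusted p = 0.0288 and 0.0172).

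**Figure D4:**
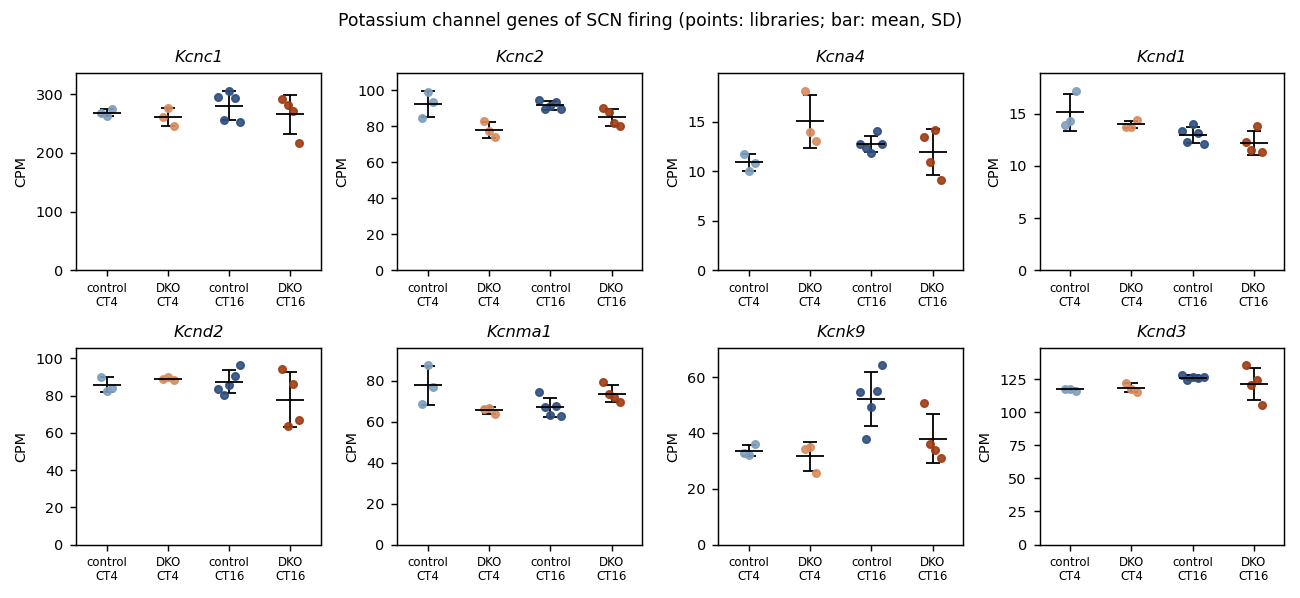
CPM of 8 genes of SCN firing, with 1 point per library and a bar for the mean and SD of each group; each axis starts at 0. None was called; the DKO libraries of Kcnc2 at CT4 lie below the control libraries, and the groups of Kcnc1 overlap.

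By class, the differences at CT16 leaned below 0. Among pore-forming voltage-gated genes 6 lay above and 21 below 0 (median -0.10), among two-pore genes 3 and 6 (-0.27), among modulatory genes 3 and 5 (-0.22), among inward rectifiers 5 and 7 (-0.06), among auxiliary genes 5 and 6 (-0.11) and among calcium- or sodium-activated genes 4 and 4 (0.00). Over all 77 genes 27 lay above and 50 below 0, with a median of -0.10 beside 0.00 for all genes tested. Of 10 neuronal markers 9 also lay below 0 (median -0.13, none called), while all 9 microglia and all 10 myelin markers lay above 0. Of 15 markers of neighbouring nuclei 11 lay below 0 (median -0.40, none called), where 13 had lain above 0 at CT4. The part of these shifts in the channel genes was not tested. At CT4, 43 genes lay above and 34 below 0, and the class medians ran from -0.04 for pore-forming voltage-gated genes to 0.24 for modulatory genes, leaving aside the 2 RNAs.

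Some channel genes were highest or lowest in libraries that also had high or low marker scores, and the part of tissue in their values was not tested. Kcna1, a low-threshold axonal subunit, stood at 126 CPM in DKO CT16 replicate 4, whose myelin score was 1.61, and at 40.4 CPM in control CT16 replicate 5, whose score was -0.990. The other 13 libraries lay between 43.3 and 78.4 CPM. Its genotype difference at CT16 was 0.44 ± 0.27 (edgeR, adjusted p = 0.394). Kcnk13, a two-pore channel of microglia, was highest in the same DKO library at 20.7 CPM, beside a microglia score of 0.446 there, and lowest in control CT16 replicate 4 at 5.98 CPM. Kcnip1 stood at 71.2, 70.6 and 78.7 CPM in DKO CT4 and at 68.8 CPM in DKO CT16 replicate 3, libraries of high neighbouring nuclei score, and at 33.3 to 53.6 CPM in the other DKO CT16 libraries. Kcnk2, a mechanically gated two-pore channel, ranged from 28.4 to 70.7 CPM and Kcna5 from 8.84 to 31.4 CPM, both highest in control CT16 replicate 5.

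**Figure D5:**
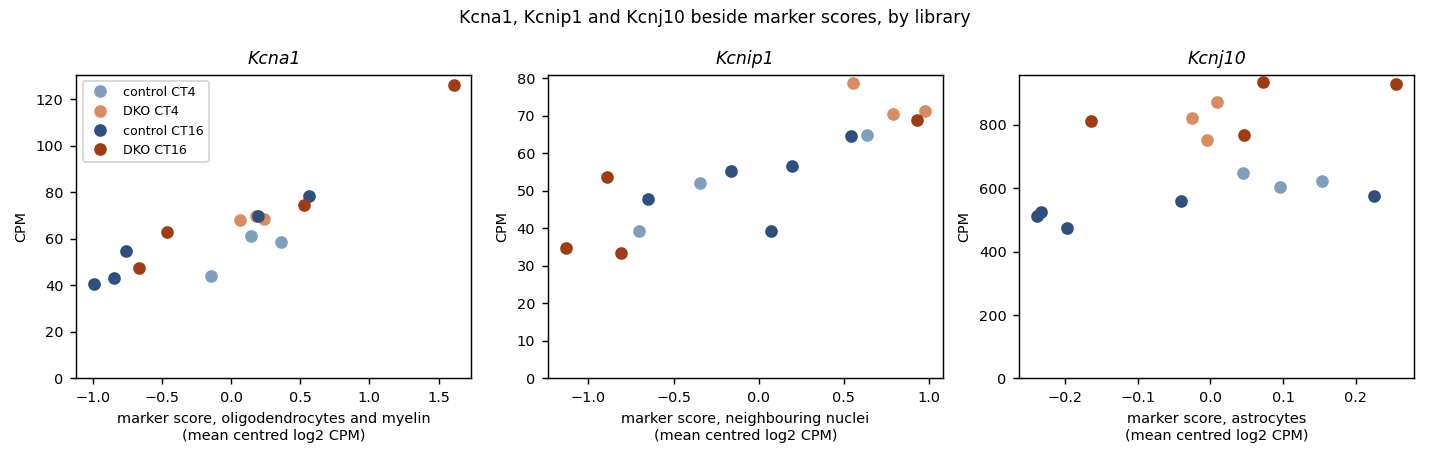
CPM of Kcna1, Kcnip1 and Kcnj10 in each library against the marker score of myelin, of neighbouring nuclei and of astrocytes, the mean of the centred log2 CPM of the list. Kcna1 is highest at the highest myelin score, Kcnip1 is above 60 CPM in libraries of high neighbouring nuclei score, and Kcnj10 in DKO lies above control over the range of the astrocyte score.

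Partner proteins and other channels of SCN firing were listed beside the Kcn genes. Of 10 partners tested, 0 were called at CT4 and 1 at CT16: Lrrc55, which encodes a BK gamma subunit, fell by 0.37 ± 0.10 on the log2 scale (edgeR, adjusted p = 0.0415), a call lost in 15 of 24 settings, among them the set without the 3 libraries that stood apart (adjusted p = 0.310). Of 12 other channels, 2 fell at CT4 and 2 at CT16. Cacna1i, a low-threshold T-type calcium channel, stood at 124, 122 and 133 CPM in control and at 94.3, 88.0 and 81.5 CPM in DKO at CT4. At CT16 it stood at 149, 121, 162, 157 and 158 CPM in control and at 132, 114, 95.4 and 99.0 CPM in DKO, where replicate 1 of DKO overlapped the lowest control library. Cacna1i fell by 0.52 ± 0.12 at CT4 and by 0.44 ± 0.10 at CT16 (edgeR, adjusted p = 0.0464 and 0.0162), calls lost in 13 and 4 settings; without the 3 libraries the adjusted p at CT16 was 0.216. Cacna1d, an L-type calcium channel, fell by 0.46 ± 0.10 at CT4 (edgeR, adjusted p = 0.0349), a call lost without control CT4 replicate 2 or 3 or any 1 of the DKO CT4 libraries (adjusted p up to 0.191). Hcn3, a hyperpolarization-activated channel, fell by 0.30 ± 0.07 at CT16 (edgeR, adjusted p = 0.0147), a call lost without the 3 libraries (adjusted p = 0.161), without DKO CT16 replicate 2 and in a fit of the compared groups alone. From day to night in DKO the L-type gene Cacna1c rose by 0.26 ± 0.06 (edgeR, adjusted p = 0.0380, lost in 13 settings), and none of either list was called with time in control. Without the 3 libraries Cacna1d fell with time in control (-0.40, adjusted p = 0.0174) and passed the interaction test (0.66, adjusted p = 0.0162), and Cacna1i rose from day to night in DKO (0.48, adjusted p = 0.0215).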

How the data were processed

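RNA of SCN punches was sequenced in 15 libraries. The authors deposited 1 table of read counts per gene, whole numbers that were not normalized, with each gene's exonic length. STAR, featureCounts, DESeq2 and mm10 appear in the submitters' processing notes, but strand setting and annotation were not given in the sources used here. Library columns were matched to samples by label.

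All 16910 genes kept by filterByExpr were fitted in R 4.3.3 with edgeR 4.0.16 (TMM factors, 4 group means, 11 residual degrees of freedom, robust quasi-likelihood test). The 5 contrasts were the genotype at each time, time in each genotype, and their interaction. The threshold for a call was an adjusted p under 0.05 (Benjamini-Hochberg, all genes tested). The standard error is the absolute log2 fold change over the square root of F. Marker scores average centred log2 CPM (prior count 2). The steps were tested on simulated counts.

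Library pairs within groups correlated at 0.9803 to 0.9899 (log2 CPM), with chi-square per degree of freedom from 6.554 to 126.6, so each library counted as 1 replicate. Total counts of 32580803 to 68757624 per library leave counting error largest for genes near 1 CPM.

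Named were all called genes, the 5 of smallest p per comparison, the 5 highest and 3 lowest per kilobase, and 29 genes listed for SCN firing or glia. Of partners and other channels the called ones were named. The genes, lists and settings were chosen with earlier results of these data known. Alternatives were RLE factors, DESeq2 1.42.0, voom of limma 3.58.1, other filters, the compared groups alone, a replicate block, tissue scores as covariates, and libraries left out. Protein sequences were not analysed here. A few genes within the naming rule are not reported here. Figures used matplotlib 3.10.9.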

Additional observations from a re-analysis of the deposited data

Results flagged for a closer look

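In a search for single libraries far from the rest of their group, run over the 39 named genes in the groups of 4 and 5 libraries, 1 of 78 sets of values stood out. Kcnj6, a subunit of G-protein-gated inward rectifiers, was at 22.44 CPM in control CT16 replicate 5 and at 15.87 to 16.73 CPM in the other 4 control libraries at CT16, so that the gap was 0.869 of the whole range. Chance alone flags about 1 in 20 such sets. The same library had a neighbouring nuclei score of 0.543, the highest of its group, and its part in the value was not tested. In DKO at CT16 Kcnj6 ranged from 8.47 to 16.7 CPM, and the genotype difference there was -0.42 ± 0.17 (edgeR quasi-likelihood test, adjusted p = 0.183).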

How the results depend on the processing

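The number of channel genes called changed with the tool and the libraries used. At CT4, where 2 were called between genotypes, DESeq2 called 5, voom 5, the compared groups alone 6, the replicate block 1, tissue covariates 1 and the set without the 3 libraries that stood apart 8. Leaving out 1 library gave 0 to 3. At CT16 (4 called) DESeq2 gave 8 and voom 9, and 1 library left out 4 to 10. For time in control (4) DESeq2 gave 8, voom 9, the compared groups alone 7, tissue covariates 12, and 1 library left out 2 to 6. For time in DKO (2) DESeq2 gave 4, voom 10, the compared groups alone 0, the replicate block 1, tissue covariates 1, the set without the 3 libraries 11, and 1 library left out 1 to 14. For the interaction (0) DESeq2 gave 2, voom 1, the set without the 3 libraries 3, and 1 library left out 0 to 1. Fits of the compared groups alone give no interaction. The share of all genes called moved as well: at CT4 it was 1.28%, and 3.59% with DESeq2, 4.86% with voom and 5.12% in the compared groups alone. At CT16 it was 4.66%, and 7.8% with DESeq2 and 6.81% with voom. For time in control it was 4.21%, and 7.58%, 10.7% and, in the compared groups alone, 5.38%. For time in DKO it was 1.8%, and 5.6%, 7.75% and 0.287%.

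The labels do not say that replicate numbers pair libraries. Deviations of same-numbered libraries correlated at -0.184 to 0.1472 over 19 pairs. Libraries of different number were not correlated, so these values cannot decide whether the numbers pair libraries. With the replicate block 4 genes were called between genotypes at CT16, 3 for time in control and 0 for the interaction. Of 6426 values of single genes under other settings, 6193 were scored as unchanged, 98 lost a call, 135 gained one and 0 changed direction while called. Direction was compared only where the main fit or the other setting called the value. Values without an adjusted p were scored as unchanged. Changes of a count under left-out libraries come with fewer samples, and other causes were not tested. Genes near 1 CPM, such as Kcng3 and Kcnmb4, rest on few counts.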
